A study of Mus musculus with 8 samples.

Results

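Genes of resting and recirculating lymphocytes were followed in single leukocytes of the inflamed joint, namely Ccr7, S1pr1, Il7r, Lef1, Tcf7, Klf2 and Dapl1. They were chosen by name, as genes linked with T-cell quiescence and with homing to lymphoid organs. The rule uses no measured value, but earlier results of these data were known when they were chosen. All 7 of the 7 members were present among the 28434 gene rows of the deposited tables, of which 16756 held a UMI. A UMI (unique molecular identifier) marks 1 captured RNA molecule, so that copies made by PCR are counted once.

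Naive T cells circulate between blood and lymphoid organs until they meet antigen. CCR7 is the chemokine receptor that lets them enter lymph nodes, and S1PR1 is the sphingosine 1-phosphate receptor that lets them leave again. The interleukin-7 receptor chain IL7R keeps them alive, while the transcription factors KLF2, TCF7 (TCF1) and LEF1 hold the resting programme, KLF2 acting on S1pr1 directly. On activation, T cells lower most of these genes and switch on effector genes such as the chemokine Ccl5 and the cytotoxic granule gene Nkg7. B cells also use CCR7 and S1PR1 to recirculate, and their precursors in the bone marrow depend on IL7R.

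All mice were C57BL/6, 10 weeks old per the study's methods, and all had been injected with K/BxN serum on day 0, day 2 and day 9. The antibodies in this serum cause arthritis within days, so no healthy or untreated joint is among the samples. On day 12 both groups received bone marrow monocytes of arthritic mice by the intravenous route, kept before for 90 min with vehicle (Mono, 4 mice) or with 1 nM MCTR3 (Mono+MCTR3, 4 mice). MCTR3 is a maresin conjugate in tissue regeneration, a lipid mediator that limits inflammation and aids repair. The joint cells were taken on day 22, sorted for the leukocyte marker CD45 and run on the 10x 3′ system, so neither the transferred monocytes nor the lymphoid organs of the mice were sampled apart from the joint.

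After the study's own cell filter (250 to 3000 genes, 500 UMIs or more, and no more than 5% of UMIs from mitochondrial genes) 10256 of 10538 cell barcodes were kept, with 1731045 to 6009009 UMIs per mouse. A UMI of Ptprc, which encodes CD45, was seen in 57.3% of them. Cells were classed by UMIs of marker genes that are not members. T cells, with at least 2 UMIs of Cd3d, Cd3e, Cd3g and Trac together, numbered 826 (median 3613.5 UMIs per cell). There were 1471 B cells (median 2279), 617 natural killer (NK) cells (2437) and 7116 neutrophils (1762). Levels are CPM, the UMIs of a gene per 1000000 UMIs of that class in a mouse, and each mouse is 1 replicate. Since sums over a class were compared, more cells with a transcript and more transcript per cell cannot be told apart in them. Values of 4 mice are given in the order of the barcode suffix, which tells the mice of a group apart without saying which labelled mouse each is. T cells carried UMIs of other cells too. Of the 826, 287 also passed the neutrophil gate, 83 the NK gate and 15 the B gate, and 116 held a UMI of a gamma delta T-cell receptor chain. The summed neutrophil genes S100a8, S100a9 and Retnlg, all 3 of them detected, ranged over the mice from 11730 to 56540 CPM in T cells, against 210800 to 307500 in neutrophils. No doublets were called.

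The DNA before 2 of the members is shown because these are the extremes of the set: Klf2 was found in every class, and Dapl1 almost only in T cells. Both sequences are RefSeq promoter windows of GRCm38.p6, read 5′ to 3′ on the plus strand and ending where the GENCODE vM21 gene begins. Klf2 (chromosome 8, 72319033 to 72321656) has the 221 bases at chr8:72318812-72319032, and Dapl1 (chromosome 2, 59484653 to 59505020) the 250 bases at chr2:59484403-59484652.
Klf2: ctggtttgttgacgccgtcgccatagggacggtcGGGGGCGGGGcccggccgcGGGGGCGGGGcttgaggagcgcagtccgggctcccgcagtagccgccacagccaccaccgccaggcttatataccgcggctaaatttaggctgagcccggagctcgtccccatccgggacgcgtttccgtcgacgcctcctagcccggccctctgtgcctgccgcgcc
Dapl1: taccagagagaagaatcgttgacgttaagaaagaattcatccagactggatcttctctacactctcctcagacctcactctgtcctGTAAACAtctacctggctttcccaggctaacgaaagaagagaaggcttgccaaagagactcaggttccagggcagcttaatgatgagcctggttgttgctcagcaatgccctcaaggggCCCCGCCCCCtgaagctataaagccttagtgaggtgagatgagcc
Capitals mark matches on either strand to a FOXO motif (TGTTTAC) or a KLF motif (CCNCNCCC). No match to a TCF and LEF motif (CTTTGA) was in these windows. The Klf2 window held 4 KLF matches, which overlap in pairs, and no FOXO match. The Dapl1 window held 1 FOXO match and 2 overlapping KLF matches. Among 32851 RefSeq promoter windows of 250 bases, 3.17% held the FOXO motif, 45.9% the KLF motif and 13.8% the TCF and LEF motif, so a KLF match is common. A match is a stretch of letters and no measured binding.

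The genes of the receptors for entry, Ccr7, and exit, S1pr1, were found in T and B cells, while NK cells nearly lacked Ccr7 and held some S1pr1. Ccr7 (chromosome 11, 99144196 to 99155077) stood in T cells at 424, 447, 371 and 319 CPM in the Mono mice and at 580, 332, 609 and 579 in the Mono+MCTR3 mice. In B cells it stood at 717, 1071, 1227 and 872 CPM in Mono and at 898, 786, 763 and 446 in Mono+MCTR3. B cells were above T cells in 7 of 8 mice, with ranges that overlap. In NK cells Ccr7 was 0 to 21.6 CPM, with no UMI in 4 of 8 mice. In neutrophils it was 1.73 to 6.21 CPM in 7 mice and 33.7 in Mono mouse 4. S1pr1 (chromosome 3, 115710433 to 115715072) was 129 to 239 CPM in T cells and 141 to 285 in B cells, so these classes overlap over nearly their whole range. It was lower, at 6.86 to 60.2 CPM, in NK cells and 0 to 5.77 in neutrophils.

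The survival receptor and the transcription factor genes other than Klf2 were highest in T cells among the classes compared. Il7r (chromosome 15, 9505788 to 9530176) stood in T cells at 193, 223, 254 and 181 CPM in Mono and 188, 207, 268 and 320 in Mono+MCTR3. Its highest value in any mouse was 24.8 CPM in B cells, 22.1 in NK cells and 7.51 in neutrophils, far below every T-cell value. Lef1 (chromosome 3, 131110471 to 131224356) stood in T cells at 294, 314, 188 and 287 CPM in Mono and at 333, 270, 268 and 315 in Mono+MCTR3. Tcf7 (chromosome 11, 52252371 to 52283014) stood there at 234, 210, 227 and 175 CPM and at 208, 242, 158 and 232. The annotation places other genes, some of them antisense, over Lef1 and Tcf7, and UMIs of overlapping genes may be hard to assign. NK cells held both factors at a lower level, Lef1 at 61.6 ± 24.5 CPM and Tcf7 at 52.5 ± 32.8 (SD, n = 8 mice each). Of 88 NK cells with a Lef1 UMI 8 held a Tcf7 UMI (9.09%), against 11.9% of NK cells without Lef1.

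Dapl1, which encodes a small protein related to death-associated protein, was the member most restricted to T cells. It stood there at 378, 291, 246 and 255 CPM in Mono and at 239, 246, 341 and 213 in Mono+MCTR3. A UMI was seen in 0 of 1471 B cells, which allows a share of cells with a UMI of up to 0.204% and sets no limit on cells that express the gene below detection. The pooled level in T cells was at least 345.5-fold higher than the floor of 3 counts over the B cells. The 1 UMI in NK cells gave a ratio of T to NK cells of 453 (counting interval 81.0 to 17910), and Tcf7 with 2 UMIs in B cells a ratio of 402 (counting interval 111 to 3323). Such intervals cover counting error only.

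Klf2 was the exception, with high values in every lymphocyte class. It stood at 3703 ± 1156 CPM in T cells, 5129 ± 1947 in B cells, 4306 ± 1403 in NK cells and 1577 ± 638 in neutrophils (SD, n = 8 mice each). Its spread between mice followed no class. Mono mice 2 and 3 were highest in B cells (7869 and 8366 CPM) and in neutrophils (2518 and 2533 CPM), and Mono mouse 2 was highest in T cells (6320 CPM). Immediate early and heat shock genes, which tissue digestion can switch on, were high in some of the same mice. The 9 read were Fos, Fosb, Jun, Junb, Egr1, Ier2, Hspa1a, Hspa1b and Dnajb1, listed after seeing the data. Their sum was highest in Mono mouse 2 in T cells (13440 CPM, others 4210 to 7159), B cells (8316 CPM, others 2623 to 6822) and neutrophils (5312 CPM, others 2706 to 4914). In NK cells both Klf2 (6545 CPM) and this sum (13820 CPM) were highest in Mono+MCTR3 mouse 3. Klf2 and the sum were also lowest in the same mouse in T cells (Mono mouse 4, 2585 and 4210 CPM) and in NK cells (Mono mouse 1, 2626 and 4460 CPM). In B cells and neutrophils their lowest values were in different mice. Not every mouse followed. NK cells of Mono+MCTR3 mouse 4 had a sum of 9261 CPM with Klf2 at 3125. In B cells Mono mouse 3, with the highest Klf2, had a sum of 6822 CPM, below only that of Mono mouse 2. The part of these genes in the Klf2 level was not tested.

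**Figure D1:**
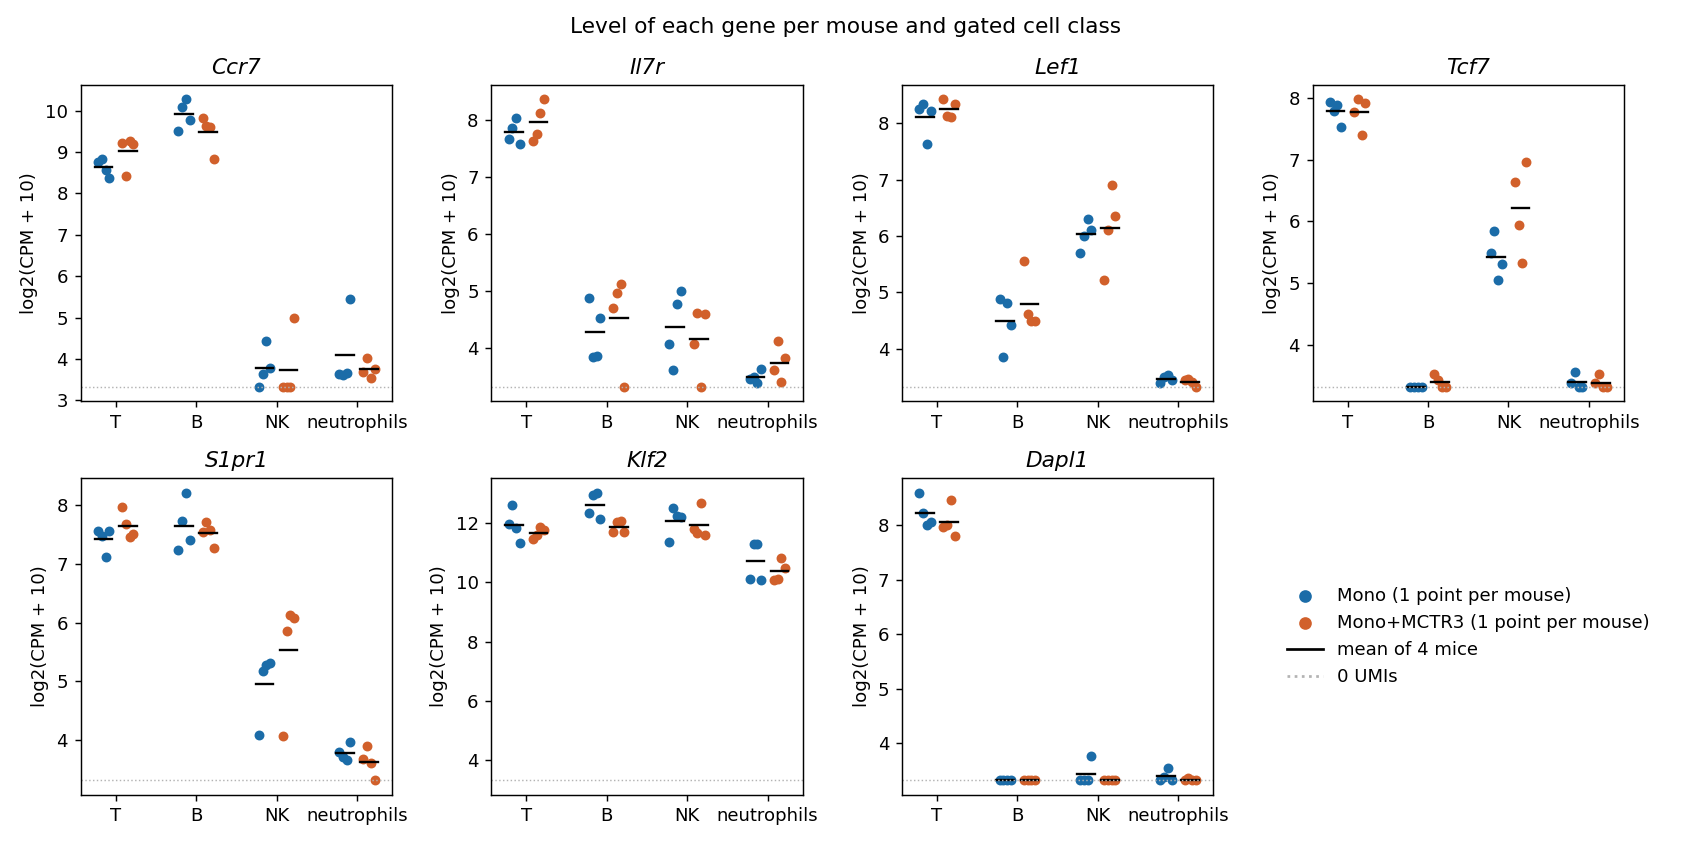
Level of each gene as log2(CPM + 10) on the vertical axis in T cells, B cells, NK cells and neutrophils, with 1 point per mouse, the mean of 4 mice as a bar and a dotted line for 0 UMIs. Ccr7 and S1pr1 are high in T and B cells, Il7r, Lef1, Tcf7 and Dapl1 in T cells, and Klf2 in all 4 classes.

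Counted per cell, Ccr7 was seen in 48.2% of T cells, 59.1% of B cells, 0.810% of NK cells and 0.913% of neutrophils. Lef1 was seen in 50.5% of T cells and 14.3% of NK cells, Tcf7 in 47.2% and 11.5%, S1pr1 in 44.1% and 7.46%, Il7r in 42.6% and 1.95%, and Dapl1 in 30.0% and 0.162%. In neutrophils, which should lack most of these transcripts, the shares of Il7r, Lef1, Tcf7, S1pr1 and Dapl1 were 0.0562% to 0.787%. Klf2 was seen in 94.8% of T cells and 77.9% of neutrophils. Because T cells were deeper, each cell was also thinned to 800 UMIs, which left out 4 NK cells and 109 neutrophils below that depth. Ccr7 was then seen in 23.2% of T cells, 37.8% of B cells, 0.489% of NK cells and 0.371% of neutrophils. B cells still led, and the last pair stayed far below T and B cells. For Lef1 the thinned shares were 17.4% of T cells and 4.41% of NK cells, and for Tcf7 14.9% and 2.77%. The thinned Il7r shares were 0.748% of B cells, 0.489% of NK cells and 0.114% of neutrophils, and 1.79% of the immature B cells described further on.

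Tests between the classes, fitted by edgeR with the mouse as a block over 5158 genes, called most members but also a large share of all genes. Against neutrophils 78.1% of the genes tested were called, and all 7 members were higher in T cells, with log2 fold changes from 0.58 for Klf2 (adjusted p = 0.000443) to 8.68 for Dapl1. Against NK cells 31.1% of genes were called, and 6 members were higher, among them Lef1 with a log2 fold change of 2.61 (adjusted p = 9.83e-14), Tcf7 with 2.46 (1.82e-12) and S1pr1 with 2.87 (1.25e-11). The value of Klf2 was 0.16 (adjusted p = 0.457). Against B cells 46.4% of genes were called. Lef1 (log2 fold change 4.22, SE 0.19), Il7r (4.08, SE 0.25), Tcf7 and Dapl1 were higher in T cells. Ccr7 was lower in T cells, at -0.65 on the log2 scale (SE 0.25, adjusted p = 0.0353). This last call was lost in DESeq2 (adjusted p = 0.343), in edgeR's likelihood ratio test (0.153), when any of Mono mice 1 to 3 or Mono+MCTR3 mice 1 and 2 was left out, and in T cells that pass no other gate (0.292). S1pr1 with 0.23 (adjusted p = 0.251, and 0.56 with 0.00704 in T cells that pass no other gate) and Klf2 with -0.20 (0.265) did not pass.

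Within T cells, the genes of the naive state were compared between cells without and with effector or memory transcripts. The split used 8 genes that are not members: Ccl5, Nkg7, S100a4, Cxcr3, Cxcr6, Cd44, Il2rb and Id2. There were 224 T cells with 0 or 1 UMI of these genes and 602 with at least 2. Lef1 and S1pr1 separated the cells most steadily. Lef1 stood at 457, 608, 289 and 420 CPM in Mono and 634, 454, 398 and 540 in Mono+MCTR3 without the markers, and at 230, 264, 155 and 260 and 231, 204, 247 and 206 with them. Every mouse was higher without the markers and the 8 values of either side did not overlap. The log2 fold change was 1.19 (SE 0.12, edgeR adjusted p = 4.81e-05). S1pr1 stood at 262, 232, 145 and 254 CPM in Mono and 479, 316, 354 and 256 in Mono+MCTR3 without the markers, and between 124 and 162 with them. It was higher in 8 of 8 mice (log2 fold change 1.07, SE 0.14, edgeR adjusted p = 0.000426).

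Ccr7 and Tcf7 passed the threshold with less agreement between mice. Ccr7 was 485 to 982 CPM without the markers and 276 to 628 with them, higher in 6 of 8 mice (log2 fold change 0.80, SE 0.18, edgeR adjusted p = 0.0151). Tcf7 was 133 to 416 CPM and 153 to 238, higher in 5 of 8 mice (0.62, SE 0.17, edgeR adjusted p = 0.0472). The Ccr7 call was lost without Mono mouse 1, Mono mouse 4 or Mono+MCTR3 mouse 2, and the Tcf7 call without Mono mouse 1, 2 or 4 or either of Mono+MCTR3 mice 2 and 4, in DESeq2 (adjusted p = 0.0588) and with library totals in place of TMM normalisation (0.109). Il7r had a log2 fold change of 0.32 (edgeR adjusted p = 0.165), Dapl1 0.27 (0.532) and Klf2 0.24 (0.147). So 4 of 7 members were called, beside 5.33% of the 1352 genes tested, and the median log2 fold change was 0.62 over the members and -0.01 over all genes. Other cells and the lineage of the T cells moved with this split. CD8 cells (a UMI of Cd8a or Cd8b1, none of Cd4) were 53 of the 224 without the markers and 354 of the 602 with them. Dapl1 was 276 to 572 CPM in CD8 cells, 37.5 to 815 in the few CD4 cells and 83.0 to 188 in the other T cells. The part of lineage in its value was not tested. Gamma delta chains summed to 0 to 28.4 CPM without the markers, with 3 of their 4 genes at 0, and to 160 to 530 with them. The 3 neutrophil genes ranged from 4174 to 181100 CPM without the markers and from 8024 to 39860 with them. Without cells that hold gamma delta chains or pass the NK gate, 2 members were called, and Ccr7 had 0.46 (edgeR adjusted p = 0.230) and Tcf7 0.50 (0.218). With only T cells under 1% neutrophil UMIs, Il7r (0.43, edgeR adjusted p = 0.0447) and Klf2 (0.28, 0.0089) passed as well. Both settings were chosen after seeing the data.

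The level of each member against the number of effector or memory UMIs, in steps, showed where the drop lay. Pooled over the mice, Ccr7 was 671 CPM in the 135 T cells with none of these UMIs, 597, 575, 584, 559 and 524 in the steps of 1, 2, 3 to 4, 5 to 9 and 10 to 19 UMIs, and 155 in the 273 cells with at least 20. Dapl1 did not start high: it was 276 CPM in cells with none, reached 470 and 589 in the steps of 3 to 4 and 5 to 9, and was 72.2 in those with at least 20. Lef1 went from 524 to 98.3 CPM, with values between 253 and 435 in the steps between. S1pr1 was lower from early on, with 325 CPM at none, 155 at 3 to 4 UMIs and 122 at the end. Tcf7 went from 348 to 171 CPM and Il7r from 214 to 162, and Klf2 lay between 3117 and 3878 CPM throughout. In the last step 82.6% of the effector UMIs were Ccl5. Each step held CD8, CD4 and other T cells together, and the part of lineage in these levels was not tested.

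**Figure D2:**
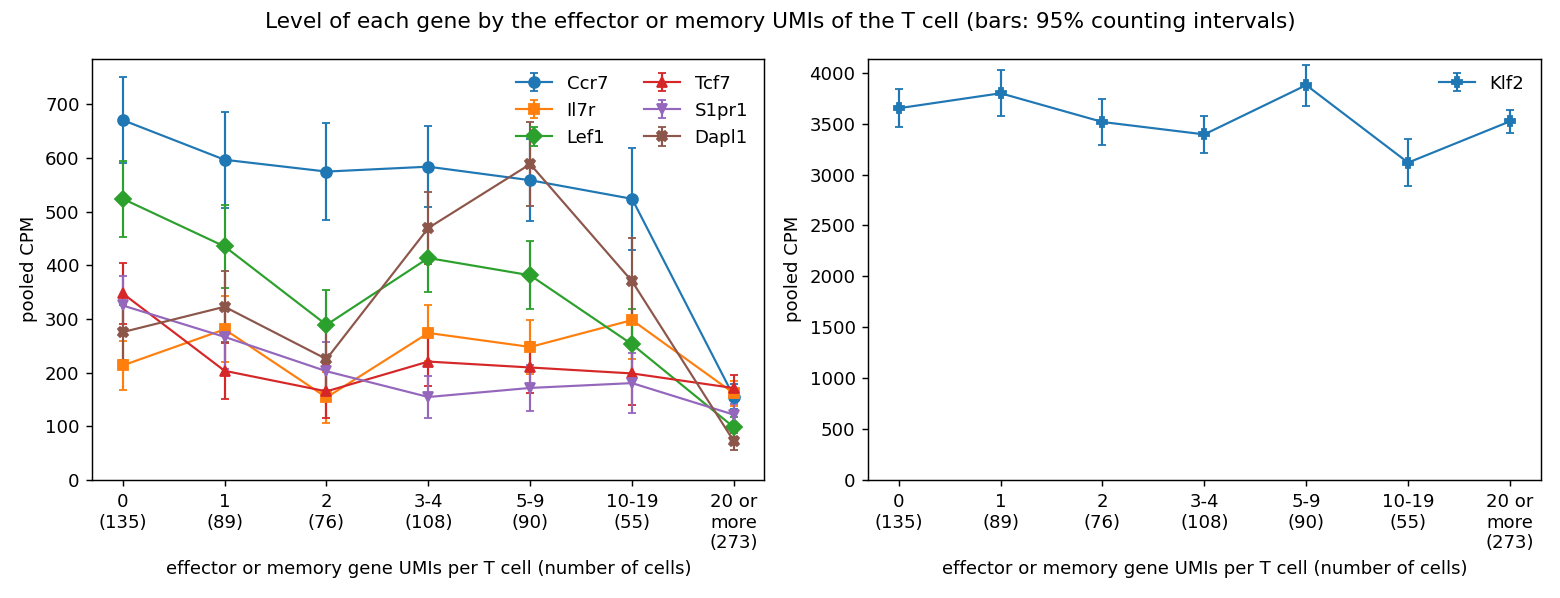
Pooled CPM of each gene (vertical axis, Klf2 in the right panel) by the number of effector or memory UMIs of the T cell (horizontal axis, number of cells in brackets). Bars are 95% counting intervals. Ccr7 stays between 524 and 671 CPM up to 19 UMIs and is 155 from 20, Dapl1 peaks at 589 in the middle, and Klf2 is level.

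A split at 20 UMIs, set after seeing these steps, gave larger log2 fold changes for Dapl1, Lef1, Ccr7 and Il7r than the split at 2 UMIs, and its tests are a description of that choice. Dapl1 was 512, 396, 296 and 416 CPM in Mono and 321, 350, 555 and 284 in Mono+MCTR3 in the 553 cells under 20, and 63.6, 131, 174 and 51.8 and 51.8, 19.5, 43.5 and 80.1 in the 273 cells at or above. The 8 mice did not overlap between the sides. Its log2 fold change was 2.56 (SE 0.26, edgeR adjusted p = 1.99e-06). Ccr7 was 419 to 849 CPM under 20 and 67.6 to 320 at or above, higher in 8 of 8 mice (2.04, SE 0.18). Lef1 was 282 to 448 and 48.3 to 136 CPM, again apart in all mice (2.18, SE 0.16). S1pr1 (0.98), Il7r (0.74) and Tcf7 (0.52) were also called, Tcf7 not without Mono mouse 2 or 4 or either of Mono+MCTR3 mice 2 and 4, and Klf2 was not (0.12, edgeR adjusted p = 0.573). These 6 of 7 members stood beside 17.9% of 1558 genes called. Of the cells at or above 20 UMIs, 90 held gamma delta chains and 82 passed the NK gate. Over all CD8 T cells gamma delta chains summed to 21.9 to 151 CPM and the NK gate genes to 23.0 to 241, not read apart by effector UMIs. Among these CD8 cells Dapl1 was 372 to 772 CPM in the 268 under 20 and 0 to 197 in the 139 at or above. Lef1 was 372 to 559 and 45.5 to 207, and both genes were apart in all mice. Ccr7 was also higher under 20 in 8 of 8 CD8 samples, but its ranges overlap (400 to 1543 and 60.6 to 481 CPM). S1pr1 was higher under 20 in 7 of 8, Il7r and Tcf7 in 6 of 8 and Klf2 in 5 of 8.

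**Figure D3:**
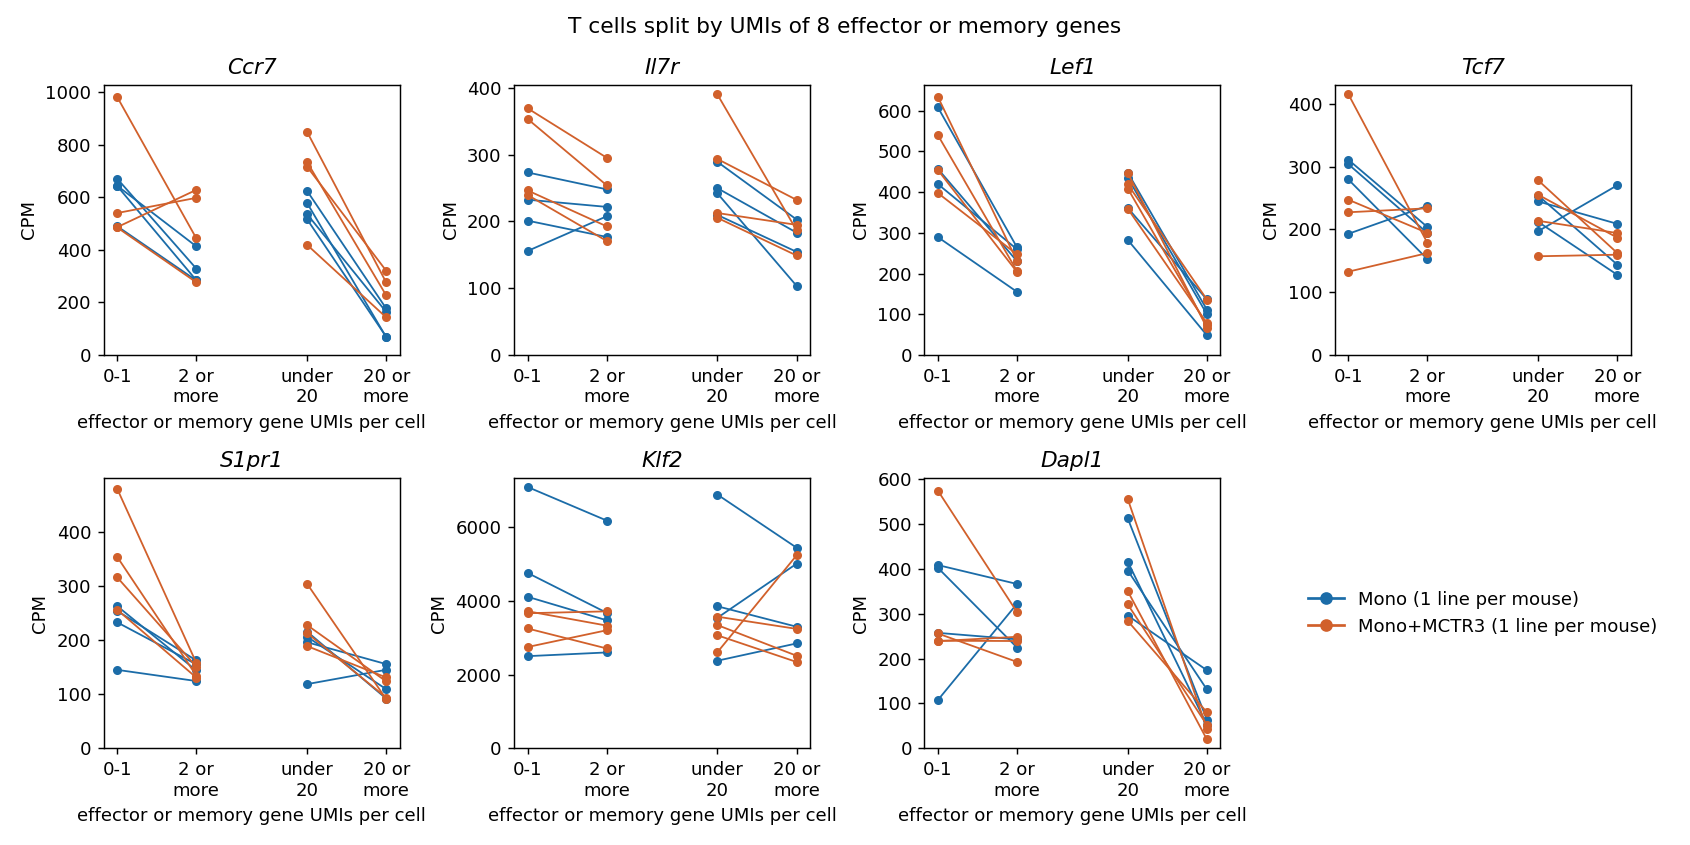
CPM of each gene (vertical axis) in T cells with 0 to 1 or at least 2 effector or memory UMIs (left pair) and with under 20 or at least 20 (right pair), with 1 line per mouse. Lef1 falls in all 8 mice in both splits, Dapl1 and Ccr7 in all 8 only in the split at 20, and the Klf2 lines run level or in both directions.

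The members were also seen in the same T cells. A Lef1 UMI was found in 75.0% of the T cells with Dapl1 and in 40.0% of those without, and a Ccr7 UMI in 73.8% and 37.2%. Cells with Dapl1 were a little deeper (median 3919.5 against 3397.5 UMIs). Some other pairs differed less, such as an Il7r UMI in 50.55% of T cells with S1pr1 and 36.36% of those without. With each cell thinned to 800 UMIs, and Klf2 left out, T cells under 20 effector UMIs held a mean of 1.24 of the other 6 members, and 32.6% held none. T cells at or above 20 held a mean of 0.473, and 63.0% held none. For comparison none was held by 51.9% of B cells, 89.7% of NK cells and 99.2% of neutrophils. At least 4 of the 6 were seen in 3.07% of T cells under 20 and in 0% of those at or above, and without thinning in 45.0% and 10.3%.

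Other genes of the same biology were read from 5 lists. Of 19 other quiescence genes 12 were tested between T cells without and with the markers. Their median log2 fold change was 0.38 beside -0.01 over all genes. Beside 5.33% of the 1352 genes called, 0 of the 12 fell and 3 rose in the cells without. These were Igfbp4, a binding protein of insulin-like growth factors (294 ± 99.0 against 92.3 ± 20.8 CPM, SD, n = 8, log2 fold change 1.79, SE 0.18, edgeR adjusted p = 5.76e-05), and the antiproliferative genes Tob1 (0.82, edgeR adjusted p = 0.0123) and Btg1 (0.53, 0.00501). All 3 were higher in 8 of 8 mice. Between CD8 and CD4 T cells 3 of 11 tested genes of this list were lower in CD8 cells, Igfbp4 and Btg1 among them, beside 9.7% of all genes called. The part of lineage in these values was not tested. Of 12 genes of interleukin-7 receptor signalling 6 were tested and 0 passed (median -0.13). Of 17 other homing and egress genes 10 were tested and 0 passed (median 0.17). Of 16 partners and targets of TCF and LEF 3 were tested and 0 passed (median -0.27). At an unadjusted p under 0.05 these lists had 1, 2 and 1 genes. In the split at 20 UMIs, where 17.9% of all genes were called, 5 of 13 quiescence genes were higher under 20 and 1, Zfp36l2, was lower. Of 11 homing and egress genes 0 were higher and 2 lower (Itga4 and Gpr183). Of 6 genes of interleukin-7 receptor signalling 1 was higher (Mcl1) and 1 lower (Jak1). Of 3 TCF and LEF genes 1 was higher (Bcl11b) and 0 lower. As a check of the split at 2 UMIs, 5 of 6 tested genes of a list of 28 further effector genes were lower without the markers (median -2.13). Lgals1, which encodes galectin-1, stood at 145 ± 46.4 against 757 ± 383 CPM and the scaffold gene Ahnak at 13.5 ± 17.7 against 109 ± 28.3 (SD, n = 8 mice). The NK receptor gene Klrk1 had no UMI without the markers and was at least 57.1-fold higher with them, against a floor of 3 counts over the group.

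Between CD8 and CD4 T cells, S1pr1 and Tcf7 were lower in CD8 cells. The comparison rests on 74 CD4 cells, 5 to 14 per mouse, against 407 CD8 cells. The other 345 of the 826 T cells held UMIs of both lineages or of neither and were left out. CD4 cells were gated on Cd4 alone, and CD8 cells on Cd8a and Cd8b1 together. The sides also differed in other transcripts. The 8 effector or memory genes summed to 4264 to 18100 CPM in CD8 and 540 to 9159 in CD4 cells, and 53 CD8 and 44 CD4 cells held 0 or 1 UMI of them. The 3 neutrophil genes summed to 1892 to 4372 CPM in CD8 and 2444 to 56760 in CD4 cells. The part of either in the differences was not tested. S1pr1 stood in CD8 cells at 212, 193, 166 and 176 CPM in Mono and 208, 213, 126 and 138 in Mono+MCTR3, and in CD4 cells at 330, 165, 268 and 433 and 369, 270, 384 and 413. It was lower in CD8 cells in 7 of 8 mice (log2 fold change -0.91, SE 0.20, edgeR adjusted p = 0.0178). Tcf7 was 138 to 316 CPM in CD8 and 208 to 533 in CD4 cells, lower in 7 of 8 mice (-0.75, SE 0.22, edgeR adjusted p = 0.0451). Lef1 (-0.50), Il7r (-0.47), Klf2 (-0.43), Ccr7 (-0.20) and Dapl1 (0.55, SE 0.39) did not pass. The 2 members called stood beside 9.7% of the 608 genes tested. No member was called once T cells passing another gate were left out, where S1pr1 was too low to be tested, the adjusted p of S1pr1 was 0.0503 without Mono+MCTR3 mouse 1, and with 1 mouse left out in turn Tcf7 passed only where that was Mono+MCTR3 mouse 4. With no filter on low counts the median of all genes moved by 0.69, S1pr1 did not pass, and Dapl1 was called (1.24, edgeR adjusted p = 4.24e-05).

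Between the stages of B cells only Ccr7 was called, among 3 members with enough UMIs to be tested. Immature B cells (502) held a UMI of Vpreb1, Vpreb2, Vpreb3, Igll1, Dntt, Rag1 or Rag2 and none of Ighd or Fcer2a. Mature ones (373) held the reverse, 498 cells held both and 98 neither. Vpreb3 was seen in 991 of all 1471 B cells, Vpreb1 in 23 and Igll1 in 18, so the gate rests mainly on Vpreb3. Ccr7 stood in immature cells at 376, 588, 936 and 407 CPM in Mono and 386, 408, 614 and 176 in Mono+MCTR3. In mature cells it stood at 845, 1950, 1440 and 2127 CPM and at 1534, 1104, 814 and 1226. All 8 mice were higher in mature cells (log2 fold change 1.65, SE 0.19, edgeR adjusted p = 2.89e-06), although 44.1% of the 1157 genes tested were called. S1pr1 (0.21, edgeR adjusted p = 0.454) and Klf2 (0.39, 0.0835) did not pass, and the Klf2 value was 0.64 without Mono mouse 2 and 0.58 without Mono mouse 3, past the threshold both times. Il7r and Lef1 were too low for the test and stood the other way round. Il7r had 55 UMIs in immature and 1 in mature B cells, and Lef1 48 and 4. Of the 47 B cells with Il7r, 44 held the precursor gene Vpreb3 (93.6%, against 66.5% of B cells without Il7r). The surrogate light chain gene Igll1 was in 11 of them (23.4% against 0.492%) and Stmn1, a gene of dividing cells, in 23 (48.9% against 5.55%). Of the 48 B cells with Lef1, 43 held Vpreb3 (89.6%, against 66.6% of those without). The 2 genes met in 12 cells, so Lef1 was seen in 25.5% of B cells with Il7r and in 2.53% of those without.

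**Figure D4:**
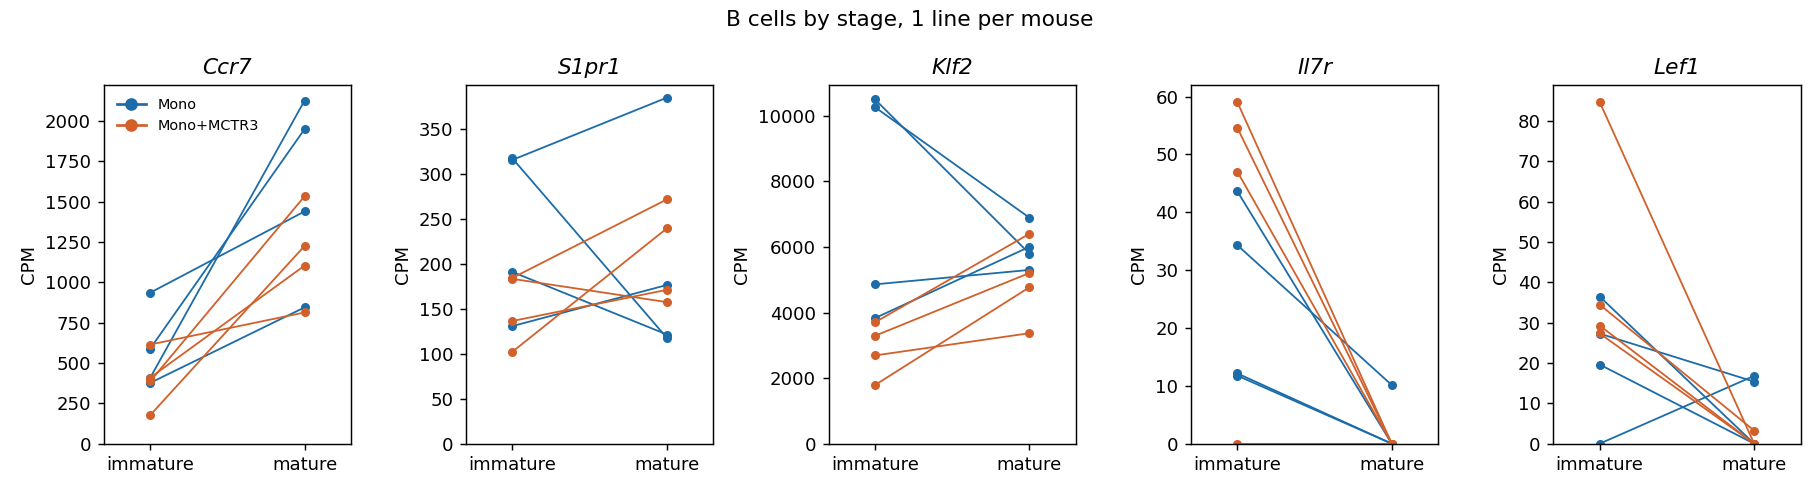
CPM (vertical axis) of Ccr7, S1pr1, Klf2, Il7r and Lef1 in immature and mature B cells, with 1 line per mouse. Ccr7 rises in all 8 mice, Il7r and Lef1 are at or near 0 in mature cells, and S1pr1 and Klf2 go in both directions.

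No member differed between Mono+MCTR3 and Mono mice past the threshold in any set tested, and no gene at all did there. By edgeR's quasi-likelihood test 0% were called in T cells (160 genes at an unadjusted p under 0.05), T cells without effector markers (59), B cells (228), NK cells (105) and neutrophils (286). The 94 mononuclear phagocytes were not compared between the groups. All 7 members had enough UMIs to be tested in T cells and in those without markers, 3 in B cells and 1, Klf2, in NK cells and in neutrophils. The mean of Ccr7 was 390 ± 56.9 CPM over the Mono and 525 ± 129 over the Mono+MCTR3 mice (SD, n = 4 per group), with 3 of 4 Mono+MCTR3 mice above all Mono mice and the fourth, at 332, near the lowest. Its log2 fold change was 0.42 (SE 0.18, edgeR unadjusted p = 0.0352, adjusted p = 1.00). The other 6 lay between -0.33 for Klf2 and 0.28 for S1pr1. The median was 0.14 over the members, with 5 of 7 positive, and -0.00 over all genes. In the T cells without effector markers S1pr1 averaged 223 ± 53.9 CPM over the Mono and 351 ± 94.5 over the Mono+MCTR3 mice (SD, n = 4 per group, log2 fold change 0.54, edgeR unadjusted p = 0.0441, adjusted p = 0.692), with 1 Mono mouse above the lowest of the other group. In these cells the 3 neutrophil genes were 33390 to 181100 CPM in Mono and 4174 to 79450 in Mono+MCTR3, and their part in the S1pr1 value was not tested. None of the 5 lists held a gene past the threshold in T cells (8, 15, 12, 8 and 15 genes tested, median log2 fold changes from -0.32 to 0.12).

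Klf2 in B cells had the lowest unadjusted p among the members. It stood at 5156, 7869, 8366 and 4484 CPM in Mono and at 3286, 4203, 4339 and 3326 in Mono+MCTR3, and the groups did not overlap. Its log2 fold change was -0.73 (SE 0.18, edgeR unadjusted p = 0.000846, adjusted p = 0.387), and it passed only where no filter on low counts was used (-0.74, adjusted p = 8.57e-05). The 9 immediate early and heat shock genes summed in the same B cells to 6170, 8316, 6822 and 4062 CPM in Mono and to 4170, 4630, 5915 and 2623 in Mono+MCTR3, and mitochondrial UMIs to 24300 to 26640 and 23190 to 25850. In T cells Klf2 was 4130 ± 1576 and 3276 ± 385 CPM, and in neutrophils its log2 fold change was -0.29 (edgeR unadjusted p = 0.353), in NK cells -0.13. B-cell Ccr7 (-0.36, edgeR unadjusted p = 0.0730) and S1pr1 (-0.02) did not pass either.

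**Figure D5:**
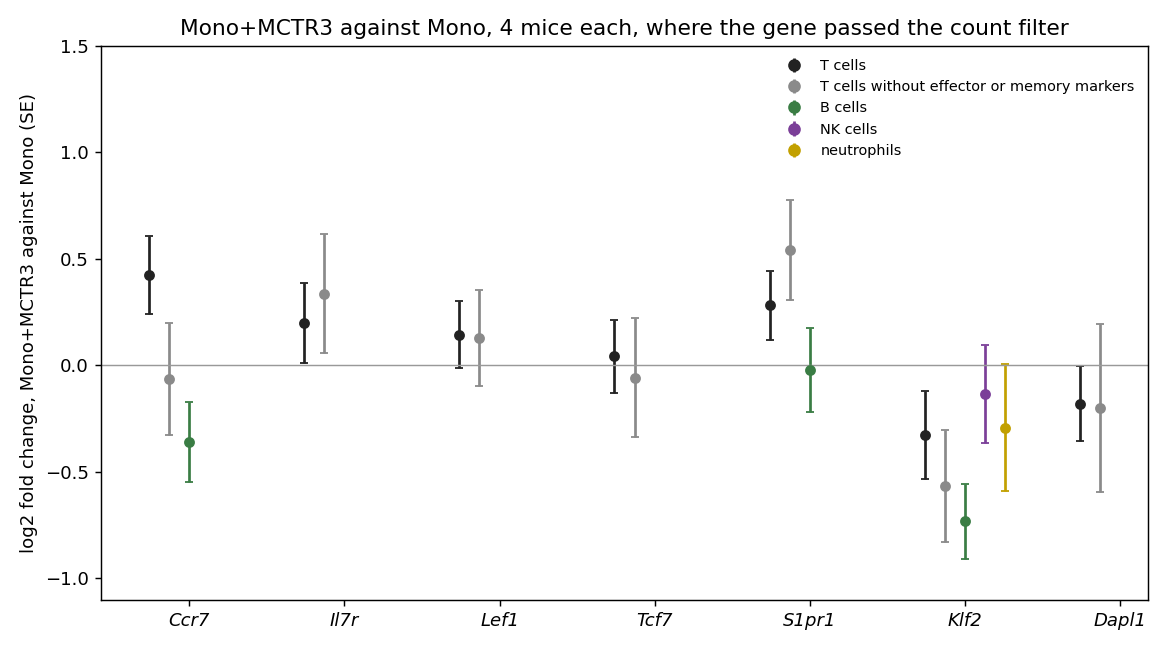
Log2 fold change of Mono+MCTR3 against Mono (vertical axis, bars are SE, 4 mice each) for each gene in the classes where it passed the count filter. No value passed the adjusted threshold, and the lowest, Klf2 in B cells, is -0.73.

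The shares of T cells and of T cells with effector markers differed between the groups by less than the spread between mice, and the CD8 share depended on the setting. T cells made up 8.47% ± 2.89 of all cells of the Mono and 7.50% ± 2.40 of those of the Mono+MCTR3 mice (SD, n = 4 per group, two-sided exact permutation p = 0.571). T cells with effector markers were 75.1% ± 6.13 and 70.8% ± 6.53 of T cells (exact permutation p = 0.429). CD8 cells were 86.8% ± 3.32 and 81.2% ± 2.11 of CD4 and CD8 cells (exact permutation p = 0.0571). This share leaves out the 345 T cells in neither set, and CD8 cells were 407 of all 826 T cells. The CD8 difference was -8.58 percentage points without T cells that pass another gate and -5.78 with up to 10% mitochondrial UMIs, against -5.69 here, and each of these settings gave an exact permutation p = 0.0286, the smallest that 4 against 4 mice can give.

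Genes with the most similar pattern over 11 cell sets (6 sets of T cells, 2 of B cells, NK cells, neutrophils and mononuclear phagocytes) were found by Pearson correlation of the mean log2(CPM + 10) among 6766 genes. For Ccr7 they were Fam169b (0.956), Gm8369 (0.952) and S1pr1 (0.948), and for S1pr1 Slamf6 (0.959), Ccr7 and Rhoh (0.936). For Il7r they were the T-cell receptor complex genes Cd3d (0.969) and Cd3e (0.968) and the T-lineage factor gene Bcl11b (0.966). Lef1 had Tcf7 (0.926) and Il7r (0.925) among its nearest genes, and Tcf7 had the T-cell receptor gene Trbc2 (0.976) and the adaptor gene Lat (0.962). For Dapl1 they were Igfbp4 (0.930), Lef1 (0.919) and Fam78a (0.906), and for Klf2 Eif4a2 (0.983), 2510002D24Rik (0.936) and Grap (0.920). The sets share mice, libraries and depth, so these values describe the pattern only.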

How the data were processed

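The deposited files, 1 for each group, hold UMI counts for every gene in every barcode. Per the labels and methods, the authors aligned reads to GRCm38 with Cell Ranger, which runs STAR, and aggregated the mice of each group apart from the other group, so equalised depth holds within a group only. The submitters' processing notes also name edgeR, without versions. Members, lists and gates were chosen with earlier results of these data known.

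From the deposited counts, cells were filtered as in the study (250 to 3000 genes, 500 UMIs or more, no more than 5% of UMIs from mitochondrial genes) and classed by marker UMIs. T cells needed at least 2 UMIs of Cd3d, Cd3e, Cd3g and Trac, and cells passing another gate too stayed T cells. Neutrophils needed at least 5 neutrophil marker UMIs and no other gate. Doublets were not called. Median UMIs per cell were 1685.5 to 2428 per mouse, mice shared 0 to 7 barcodes over 28 pairs, and no pair of a group agreed within sampling noise (a chi-square of 8.4 to 30.0 per gene). The suffixes were taken as separate mice.

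UMIs were summed per mouse and class. edgeR 4.0.16 in R 4.3.3 (TMM, filterByExpr, quasi-likelihood test, Benjamini-Hochberg adjusted p under 0.05) compared sets of cells with the mouse as a block, since both sets came from the same mouse, and the groups without one. Gate genes were left out of each table of results. Standard errors were taken from the fold change and its F statistic. Shares were compared by a two-sided exact permutation test. The text names the 7 members, up to 3 called genes of a list in each direction and the 3 most similar genes, which needed 200 UMIs. Genes named beside these were chosen after their values were seen. For 1 gene that the rule would name, the result is not reported here. Alternatives were library totals, no count filter, the likelihood ratio test of edgeR, DESeq2 1.42.0, other gates and cell filters, and each mouse left out. Python 3.11.15, numpy 2.4.6, pandas 2.3.3, scipy 1.17.1 and matplotlib 3.10.9 served for the rest (random seed 1). The fits were tested on simulated data, with 1 fixed dispersion for all genes and no differences between mice beyond depth. Changed genes that the count filter removed were counted as not recovered. For T cells without against with effector markers (1417 genes), 26% of the genes with a simulated log2 change of 1 were recovered and 35% of those with 2, with 3 of 64 calls false. For the groups in T cells (3629 genes) 40% and 76% were recovered, with 7 of 123 calls false. Coordinates are those of GENCODE vM21, and promoter windows come from RefSeq, which the table held for 5 of 7 members.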

Additional observations from a re-analysis of the deposited data

Results flagged for a closer look

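Among 39 sets of 4 mice checked for 1 mouse far from the other 3, 5 stood apart by Dixon's 95% limit, and chance gives about 1 in 20. Ccr7 in T cells of Mono+MCTR3 mouse 2 was 332 CPM, against 579 to 609 in the others. Lef1 in B cells of Mono+MCTR3 mouse 1 was 37.3 CPM, against 12.4 to 14.5. S1pr1 in NK cells of Mono mouse 1 was 6.95 CPM, against 26.0 to 29.5. Klf2 in NK cells of Mono+MCTR3 mouse 3 was 6545 CPM, against 3125 to 3537, and in the same cells the 9 immediate early and heat shock genes summed to 13820 CPM, against 5520 to 9261.

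Ccr7 in neutrophils of Mono mouse 4 was 33.7 CPM, against 2.24 to 2.72 in the other Mono mice. Of 122 Ccr7 UMIs in cells of the neutrophil gate 57 came from 1 cell, which also held 18 UMIs of Fscn1, 4 of Ccl22, 6 of Cst3 and 6 of S100a8 among 6485 in all, and 0 of H2-Ab1. Without it the pooled level was 3.81 in place of 7.15 CPM. The cell's identity was not tested.

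Il7r was also seen outside the classes compared, in 14.4% of the 132 cells in no class, against 0.464% of neutrophils. Of these 19 cells, 6 held the plasmacytoid dendritic cell gene Siglech, and 6 others Gata3. None held Cd3e.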

How the results depend on the processing

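Every call of the 4 members between T cells without and with effector markers had the same direction in all alternatives, and so did the 6 called at 20 UMIs. Counts moved more. Between T cells without and with markers, 279 genes passed with a gate of 20 UMIs, 179 with 0 or 1 against at least 20, 162 under 1% neutrophil UMIs, 255 with a gate of 3 UMIs, 124 without S100a4 and Id2 in the gate and 35 (2 members) without gamma delta or NK gate cells, and with no filter on low counts 301 (2 members, Klf2 at -0.030). Without gamma delta or NK gate cells Dapl1 was -0.18. At 20 UMIs DESeq2 called 150 genes.

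With library totals in place of TMM the median of all genes moved by -0.25 (T against B cells), -0.37 (NK cells), 0.70 (neutrophils), -0.14 (effector split), -0.24 (B-cell stage) and -0.13 (groups in neutrophils). Then S1pr1 was -0.024 against B cells and -0.031 between mature and immature B cells, Klf2 was -0.23 against NK cells and -0.049 at 20 UMIs, 2526 genes passed against NK cells, and 1 member between CD8 and CD4 cells. In T cells without markers, Mono+MCTR3 against Mono, Ccr7 was then 0.069 and Tcf7 0.038. With no filter 7433 genes passed against neutrophils, 992 (4 members) between B-cell stages and 469 (1 member) between CD8 and CD4 cells, where Ccr7 was 0.48, Il7r 0.20, Lef1 0.19 and Klf2 0.27. Leaving out T cells that pass another gate left 20 genes and 0 members there, and the CD8 share differed by -8.58 points (exact permutation p = 0.0286), or by -5.78 with up to 10% mitochondrial UMIs (0.0286). Without an upper limit on genes per cell 2 members passed between B-cell stages.

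For Mono+MCTR3 against Mono, no filter gave 31 genes in T cells, 21 in those without markers, 58 (1 member, Klf2) in B cells, 11 in NK cells and 8 in neutrophils. The likelihood ratio test gave 3 in T cells without markers, 1 in B cells and 7 in neutrophils, and DESeq2 5 in neutrophils. T cells passing no other gate gave 1 gene. In T cells without markers Lef1 was -0.0054 with a T gate of 3 UMIs, -0.061 without cells passing another gate and -0.043 with an effector gate of 1 UMI, and Il7r -0.011 without cells passing another gate. Tcf7 in T cells was -0.026 without gamma delta or NK gate cells. The cause of these moves was not tested.

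With each mouse left out, 2095 to 2420 genes (4 to 5 members) passed against B cells, 1436 to 1588 against NK cells, 3790 to 4238 against neutrophils, 47 to 128 (2 to 4) in the effector split, 217 to 282 (5 to 6) at 20 UMIs, 25 to 67 (0 to 2) between CD8 and CD4 cells and 412 to 593 (1 to 2) between B-cell stages. The group difference turned sign for Tcf7 in T cells (-0.069 to 0.14), Ccr7 (-0.36 to 0.046) and Tcf7 (-0.43 to 0.058) in those without markers, S1pr1 in B cells (-0.18 to 0.18) and Klf2 in NK cells (-0.44 to 0.0079). Between the groups 0 to 1 passed in B cells, 0 to 7 in neutrophils and 0 in the other 3 sets. The T share differed by -1.94 to 0.413 points, the effector share by -7.56 to -2.53 and the CD8 share by -7.15 to -4.68.

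Without the replicate block (the mouse) the effector split called 91 genes and the same number of members, 4, with Tcf7 at 0.65. No paired analysis was possible between Mono and Mono+MCTR3 because the suffix numbers are names of different mice.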

Other observations

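Cells in no class held further members of the set. Of the 19 such cells with Il7r, the 6 with Siglech all held Bst2, Tcf4, Ccr9 and Cd7 as well, genes known from plasmacytoid dendritic cells. None of the 6 cells with Gata3 and none of the 5 with Arg1 held Siglech, and 3 cells held Il1rl1, which encodes the interleukin-33 receptor of type 2 innate lymphocytes and other cells. These were 19 cells from all mice, read after their values were seen, and no class was named from them. Ccr7 was seen in 9 cells of no class, of which 5 held Hspa1a, 6 Dnajb1 and 3 Cd79a.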
